A study of Mus musculus with 20 samples.

Results

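The 8 genes Cthrc1, Lrrc15, Prg4, Tnc, Postn, Fbn2, Nov and Gap43 were taken from the 31053 genes of single-cell RNA-seq libraries of mouse interscapular brown adipose tissue (iBAT). They were chosen by symbol because they were high in a state of stromal cells that was expanded under CL316,243 (CL), a ligand of the β3 adrenergic receptor. Their levels under CL in the Lin- libraries, and in the cluster that marks that state, were therefore used in the choice and are given as a description with no test. All 8 symbols were found, each in 1 row, and all 8 were followed in every stromal subtype.

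Stromal vascular cells of 3 to 4 mice per experiment, aged 8 to 14 weeks, had been pooled and separated with magnetic beads into cells with immune lineage markers (Lin+) and cells without them (Lin-), and the values below come from the Lin- libraries unless stated. Male C57BL/6J mice were housed at 24 °C (room temperature, RT), exposed to cold (COLD, 6 °C) for 4 days or infused with CL at 0.75 nmol per hour for 4 days, with 2 experiments in each group. CL came from osmotic pumps implanted under the skin. The study's methods name no implant in the RT mice, so drug and implant cannot be told apart in the CL values. Female mice carried Adrb1 fl/fl, with Pdgfra-CreER -/- (WT) or Pdgfra-CreER +/- (KO), the tamoxifen-inducible CreERT2 of the study's methods. In the KO, the floxed gene of the β1 adrenergic receptor could be deleted only in cells that used the Pdgfra promoter, and every mouse of this line, WT included, had received tamoxifen. These mice were kept at RT or in cold for 4 days, with 1 experiment in each group. Each experiment is a pool of mice and counts as 1 replicate.

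Resting fibroblasts that enter an activated state secrete matricellular proteins, which sit in the extracellular matrix and bind integrins and growth factors without being structural fibres themselves, and they build new fibres and remodel old ones. In adipose tissue, the adipose stromal cells (ASCs) are the fibroblast-like cells that hold the adipocyte progenitors. The 8 genes cover several of these roles. Tnc (tenascin C), Postn (periostin) and Nov (a member of the CCN family, also named Ccn3) encode matricellular proteins. Cthrc1 encodes a secreted glycoprotein of injured and remodelling tissue, Prg4 encodes lubricin, a lubricating proteoglycan of joint surfaces, and Fbn2 encodes fibrillin 2, a protein of microfibrils. Lrrc15 encodes a leucine-rich repeat membrane protein of activated fibroblasts, and Gap43 encodes a growth-associated protein best known from growing axons.

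On the RefSeq annotation of GRCm38.p6, the genome of the files' mm10 build, Cthrc1 spans chr15:39076932-39087121 and Nov chr15:54745910-54753762, Lrrc15 spans chr16:30269302-30283254 and Gap43 chr16:42248552-42340651, Prg4 spans chr1:150449412-150466221, Postn chr3:54359267-54391041 and Tnc chr4:63959785-64047015. The RefSeq promoter table held 3 of the 8, namely Tnc, Postn and Lrrc15. The 250 bases before their transcription starts are shown here because Tnc and Postn had the largest cold differences in ASC1-like cells among the 8 genes and Lrrc15 was among the leading genes of the CL state. Tnc and Postn have 2 starts each in that table, and the inner Tnc window, which overlaps the outer one, is left out. All are read 5′ to 3′ on the strand of the gene, and the capitals mark a match to TGANTCA (the AP-1 motif), TATAAA (the TATA box) or CAGAC (SMAD), which were searched on both strands together with GGAATG (TEAD).
Tnc (GRCm38.p6, chr4:64047016-64047265, minus strand): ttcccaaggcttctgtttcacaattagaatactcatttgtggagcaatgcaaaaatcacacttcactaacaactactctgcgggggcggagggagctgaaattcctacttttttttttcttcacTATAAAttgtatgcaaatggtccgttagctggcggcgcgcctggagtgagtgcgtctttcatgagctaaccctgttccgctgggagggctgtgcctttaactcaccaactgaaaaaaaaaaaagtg
Postn, outer start (GRCm38.p6, chr3:54359017-54359266, plus strand): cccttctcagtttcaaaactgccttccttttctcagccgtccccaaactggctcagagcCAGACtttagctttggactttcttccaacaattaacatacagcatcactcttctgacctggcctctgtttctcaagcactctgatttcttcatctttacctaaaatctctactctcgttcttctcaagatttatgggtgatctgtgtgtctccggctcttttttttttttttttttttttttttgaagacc
Postn, inner start (GRCm38.p6, chr3:54360857-54361106, plus strand): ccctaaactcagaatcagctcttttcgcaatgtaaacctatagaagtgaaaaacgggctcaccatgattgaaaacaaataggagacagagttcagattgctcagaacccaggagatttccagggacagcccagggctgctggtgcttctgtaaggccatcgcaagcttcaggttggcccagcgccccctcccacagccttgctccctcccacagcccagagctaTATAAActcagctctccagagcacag
Lrrc15 (GRCm38.p6, chr16:30283255-30283504, minus strand): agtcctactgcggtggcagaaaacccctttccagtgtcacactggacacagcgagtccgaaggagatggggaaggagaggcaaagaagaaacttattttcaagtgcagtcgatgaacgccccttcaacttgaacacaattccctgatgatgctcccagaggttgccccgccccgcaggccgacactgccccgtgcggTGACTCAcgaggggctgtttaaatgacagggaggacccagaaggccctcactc
The Lrrc15 window held the AP-1 letters TGACTCA 53 bases before the start, a motif present in 6.75% of the 32851 windows of this length. The Tnc window and that of the inner Postn start each held TATAAA, 126 and 26 bases before the start, as did 12.4% of all windows. The window of the outer Postn start held CAGAC 191 bases before it, as did 42.2% of windows, and GGAATG, present in 12.6%, was in none of those shown.

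Of 66339 Lin- cells kept, 39392 were stromal. The 29 clusters were formed without the marker genes and named from them where they allowed it. The subtypes ASC1-like, ASC2-like and ASC3-like carry the suffix because they rest on expression alone. Per library they held 350 to 2803, 504 to 2049 and 490 to 1350 cells. The immune marker list summed to 3.63 to 23.9 CPM (counts of a gene scaled to a fixed total of the summed counts) in the C57 subtype sums. Several libraries stood apart. RT replicate 2 kept 28.0% of its barcodes, the other Lin- libraries 57.7% to 96.2%. Only 37.6% of the Lin- cells of CL replicate 1 were stromal, against 54.7% to 80.4% in the other libraries. CL replicate 2 left 15.7% stromal cells in its Lin+ library, where the other 9 libraries had 0.206% to 0.693%. In the Adrb1 line the RT libraries were made with version 3 and the COLD libraries with version 2 of the Chromium kit. Per the study's methods the treatments of this line were also collected on separate days. Kit, collection day and temperature cannot be told apart there. At most 193 cell barcodes were shared between 2 Lin- libraries.

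The stromal cluster with the highest mean level of the 8 genes held 2872 cells and is called the member-high cluster. Its leading genes were Cilp, Thbs4, Myoc, Cthrc1 and Lrrc15, and its cells were kept out of the subtypes. It made up 24% of the stromal cells of CL replicate 1 (95% exact binomial interval 22.8% to 25.3%) and 8.07% of those of CL replicate 2 (7.34% to 8.85%). In the RT libraries it made up 5.45% and 5.55%, and in the COLD libraries 1.41% and 2.48%. Both CL libraries were above all 4 other C57 libraries, with CL replicate 1 far above CL replicate 2. The 4 libraries of the Adrb1 line lay between 5.06% and 6.06%.

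In this cluster the C57 RT cells had the lowest mean level of most of the genes. Cthrc1 was at 3.79 and 13.2 CPM in the member-high cells of RT replicates 1 and 2, at 58 and 130 CPM in COLD and at 2749 and 706 CPM in CL. Lrrc15 was at 8.99 and 3.36 CPM in RT, at 0 and 25.7 CPM in COLD and at 237 and 26.6 CPM in CL. The summed level of the 6 VSMC (vascular smooth muscle cell) markers in member-high cells was 50.8 and 65.4 CPM in RT, 43.5 and 28 CPM in COLD and 580 and 68.3 CPM in CL, so it was highest in the library with the highest Cthrc1 and Lrrc15. At most 1 of the 6 was at 0 in a library, and its part in these values was not tested. The Lrrc15 values of CL replicate 2 and COLD replicate 2 were close together. Prg4 behaved differently, at 138 and 443 CPM in RT, 531 and 621 CPM in COLD and 274 and 558 CPM in CL, so both COLD libraries were above both RT libraries and the CL range overlapped both groups. In the Adrb1 line, Lrrc15 was at 270 and 91.3 CPM in member-high cells of WT and KO at RT and at 88.1 and 80.4 CPM in cold. All of these were above CL replicate 2 of the C57 mice, and WT at RT was also above CL replicate 1. A high Lrrc15 level in these cells was thus not confined to CL. At a finer clustering (leiden resolution 2, 37 clusters), the cells led by Cilp, Thbs4 and Myoc formed a cluster of their own. The member-high cluster then held 2232 cells led by Cthrc1, H19 and Lrrc15. It took 23.2% and 6.65% of the stromal cells in CL, 1.21% and 2.65% in COLD, and 0.0283% (1 of 3531 cells) and 1.28% in RT. Of its cells, 975 of 1198 and 217 of 350 in CL had also been in the member-high cluster at resolution 1. In COLD this held for 4 of 67 and 41 of 121 cells, and in RT for 0 of 1 and 34 of 47. The COLD shares at the coarser and the finer clustering thus describe mostly different cells. The plot of the member-high share shows both clusterings side by side.

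**Figure D1:**
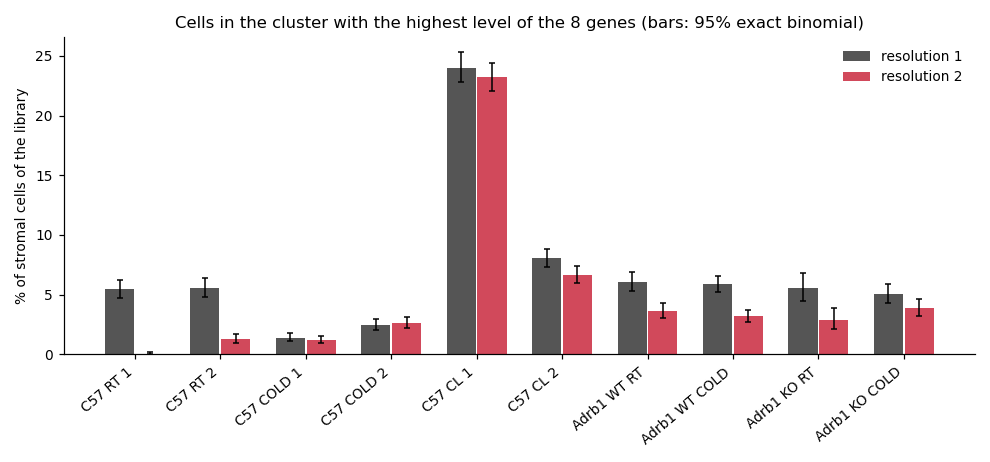
Bars give the percent of each library's stromal cells that fell in the cluster with the highest mean level of the 8 genes, at leiden resolution 1 and 2, with 95% exact binomial intervals that cover counting error only. CL replicate 1 stands at 24% and CL replicate 2 at 8.07%, and the C57 RT bars shrink to 0.0283% and 1.28% at resolution 2. The clusters at resolution 1 and 2 share only part of their cells.

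Cells that carried several of the genes were most frequent in CL replicate 1. Each cell was thinned to 1000 UMIs, and a gene counted as present from 1 UMI. Of the 4314 stromal cells of CL replicate 1 that were deep enough, 702 (16.3%) carried at least 3 of the 8 genes. In CL replicate 2 this was 94 of 4922 cells (1.91%), in COLD 1.84% and 1.18%, and in RT 0 of 3312 cells, which allows a share of up to 0.0906% with 3 genes detected at this depth, and 0.174%. In the Adrb1 line it was 5.63% in the WT RT library and 0.477% to 1.75% in the other 3. In CL replicate 1, 82.8% of the Lrrc15-positive, 72% of the Fbn2-positive and 70.9% of the Nov-positive cells were also positive for Cthrc1, which itself was present in 33.7% of the cells. There 298 cells were positive for both Cthrc1 and Prg4 where the product of their shares gives 282. In CL replicate 2, with Cthrc1 in 394 of 4922 cells, 82 cells were positive for both where the product gives 61.1, and 6 of 9 Lrrc15-positive cells, 15.8% of the Fbn2-positive and 20.9% of the Nov-positive cells were also positive for Cthrc1. In COLD replicate 1, 51.7% of the Cthrc1-positive cells carried Postn, which was present in 29.5% of all stromal cells, and 16 cells carried both Cthrc1 and Prg4 where the product of shares gives 32.

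Over all stromal cells of a library, 7 of the 8 genes had both CL libraries above both RT libraries, where 5.81% of the 13813 genes tested did. In ASC1-like cells 5 of the 6 members tested did so (7.46% of all genes), and in ASC2-like and ASC3-like cells 3 of 6 (4.65% and 5.05%). Since the genes were chosen for this, nothing is read from it. Cthrc1 was at 11 and 24.9 CPM in RT, at 168 and 161 CPM in COLD and at 1336 and 183 CPM in CL. CL replicate 1 was far above every other library, whereas CL replicate 2 was near the COLD libraries. Fitted CL differences from RT, on the log2 scale and with no test, were 5.68 for Cthrc1, 6.57 for Lrrc15, 4.98 for Tnc and 4.89 for Fbn2, and leaving out CL replicate 1 lowered them to 3.86, 3.06, 1.79 and 2.43. For Postn, Prg4 and Nov they were 2.38, 3.09 and 1.93, and 2.01, 3.17 and 1.33 without CL replicate 1. Gap43 was the exception, at 9.33 and 49.1 CPM in RT and 61 and 20.4 CPM in CL, so that its groups overlapped.

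The cold comparison asks whether genes of the CL state also changed with cold exposure, a contrast that was not used to choose them, although it shares the RT libraries with the CL values. In ASC1-like cells the genes called higher in cold were Cthrc1, Prg4, Tnc and Postn. These 4 passed the test out of 6 measured well enough, where 5.68% of the 12439 genes tested in this subtype were called higher. The Prg4 level in cold is not shown to be above background in this subtype, as set out below. In ASC2-like cells only Prg4 passed of 6 tested (background 0.502% of 10946), in ASC3-like cells only Cthrc1 of 6 (0.123% of 10529), and over all stromal cells only Postn of 8 (2.19% of 13813). No member was called lower in any of these, where 5.22%, 0.137%, 0.0475% and 1.46% of genes were, which makes 10.9%, 0.64%, 0.171% and 3.66% called in either direction. The subtypes stand for different clusters by treatment in ASC1-like cells. In RT, 96.6% and 94.8% of them were in cluster 2, led by Smoc2 and Cxcl14, and in COLD 85.3% and 89% were in cluster 1, led by Cxcl9 and Cxcl10 and with Tnc among its 10 leading genes. ASC2-like and ASC3-like cells were spread over the same pair of clusters in every group, although cluster 7, led by Penk and Inmt, held 60.1% of the ASC3-like cells of CL replicate 1. Both COLD libraries were above both RT libraries for 5 of 6 members in ASC1-like (15.7% of all genes), 3 of 6 in ASC2-like (9.74%) and 4 of 6 in ASC3-like cells (10.6%), and for 4 of 8 over all stromal cells (16%). Both were below both RT libraries for 0 (24.5%), 2 (13.6%), 0 (12.3%) and 1 (22.5%). Genes that are low in every group but one pass the filter through that group, so counts over the tested members are not counts over all 8. The mix of subtypes also differed. ASC2-like cells were 22.6% and 21.2% of the Lin- cells in RT and 13% and 13.1% in COLD. ASC1-like cells were 25.3% and 21.1% in RT and 28.4% and 31.5% in COLD. Sums over all stromal cells carry this mix as well as levels within cells, and its part was not tested.

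**Figure D2:**
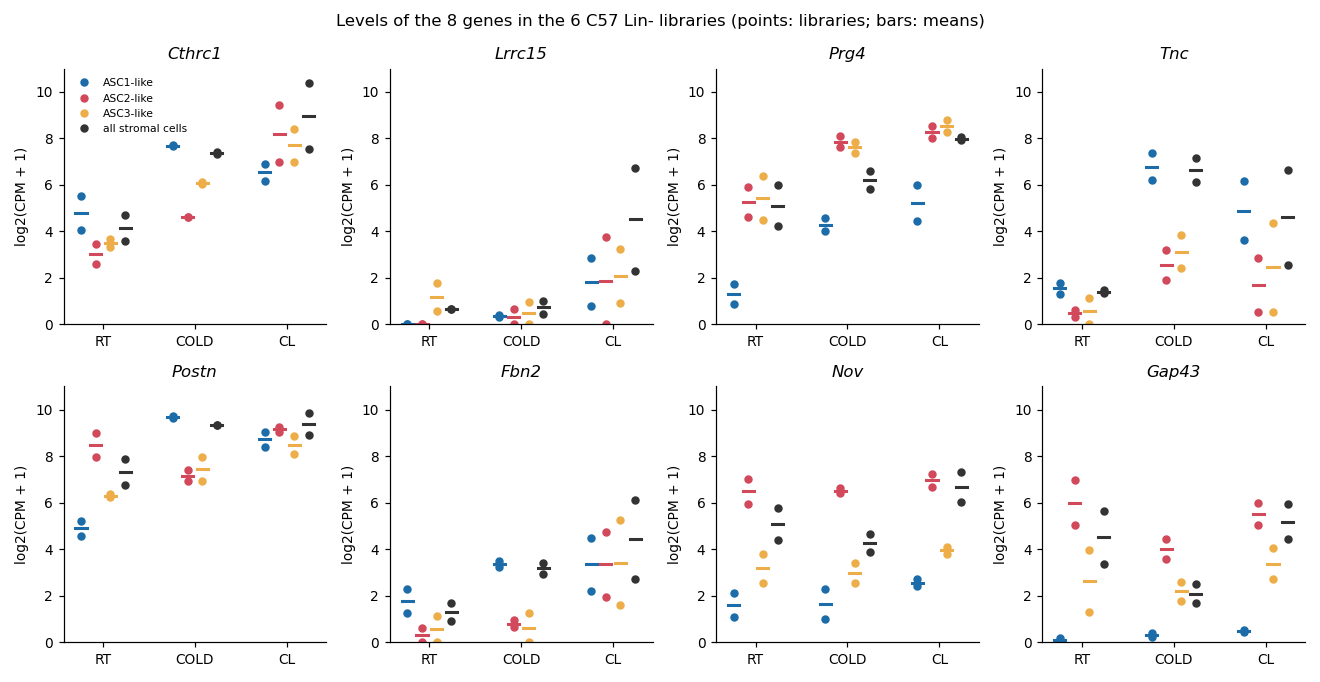
Each panel shows 1 gene as log2(CPM + 1) on the y axis in the 6 C57 Lin- libraries, grouped on the x axis by RT, COLD and CL, with points for libraries and bars for the mean of 2. In ASC1-like cells (blue) Tnc, Postn and Cthrc1 were above RT in both COLD libraries, and in all stromal cells (black) the CL libraries of Cthrc1, Lrrc15 and Fbn2 lay far apart.

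Among the matricellular genes, Tnc was close to absent from stromal cells at RT. In ASC1-like cells it was at 2.47 and 1.45 CPM in RT, 163 and 73.1 CPM in COLD, and 70.8 and 11.2 CPM in CL. The RT libraries were lowest, and the CL libraries lay between RT and COLD replicate 2. The fitted cold difference was 5.71 ± 0.84 on the log2 scale (SE, n = 2 libraries per group, edgeR quasi-likelihood test, adjusted p = 0.00408). Without RT replicate 1 it was 6.77 with an adjusted p of 0.0526 by the same edgeR test. Where leaving out a library left a group with 1, the spread came from the remaining pairs of the fit, and the lone library was assumed to vary like them. In ASC2-like and ASC3-like cells Tnc stayed under 20 CPM in every C57 library, and its cold differences of 3.77 ± 1.34 and 4.22 ± 2.00 did not pass (edgeR adjusted p = 0.364 and 0.731). In all stromal cells it did not pass either (5.90 ± 1.35, adjusted p = 0.0582 with edgeR), but it did with the replicate number as a block (adjusted p = 0.0139) and with RT and COLD libraries alone (2.25e-04). With the block, Cthrc1 (3.35) and Prg4 (1.21) over all stromal cells also passed (edgeR adjusted p = 0.0415 and 0.0393, against 0.061 and 0.147 without it).

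The share of ASC1-like cells with Tnc was higher in cold in each mouse line. At 1000 UMIs per cell, 0.284% and 0.0828% of C57 cells were positive in RT and 10.9% and 5.13% in COLD. In the Adrb1 line the share was 0.63% (WT) and 0.571% (KO) at RT and 18.1% and 12.9% in cold. All 4 COLD experiments were above all 4 RT experiments (mean difference 11.4 percentage points, exact two-sided permutation test p = 0.0286, the smallest this design allows). Adjusted over the 32 comparisons of 8 genes in 3 subtypes and all stromal cells, the p was 0.061. Immune-like cells were positive in 0% to 0.422% in the RT and 0.241% to 2.87% in the COLD experiments, with a median of 984.9 to 2557 UMIs before thinning. In 3 of the RT experiments 0 of 91 to 169 of them were positive, which allows a share of up to 1.78% to 3.3%, so background under the RT shares of ASC1-like cells could not be resolved. These permutation tests join the mouse lines and take no account of line or replicate number, and in the Adrb1 line kit version and collection day changed with temperature.

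The cold response of Postn differed between the subtypes. In ASC1-like cells it was at 35.7 and 23 CPM in RT, 798 and 843 CPM in COLD, and 525 and 336 CPM in CL. The RT libraries were far below the rest, and the cold difference of 4.83 ± 0.56 (log2) passed (edgeR adjusted p = 0.00158). In ASC2-like cells it was at 251 and 506 CPM in RT, 167 and 120 CPM in COLD, and 619 and 529 CPM in CL. There both COLD libraries were below both RT libraries, with a difference of -1.26 ± 0.30 that did not pass (edgeR adjusted p = 0.135). DESeq2 gave the same difference with an adjusted p of 0.00115. The share of Postn-positive ASC2-like cells was 19.7% to 59.2% in the 4 RT and 7.48% to 12.7% in the 4 COLD experiments of both lines (exact two-sided permutation p = 0.0286, adjusted p = 0.061). Immune-like cells of the C57 libraries held Postn at 3.56 to 12.3 CPM in RT and 50 to 108 CPM in COLD, so how much of the COLD share is background was not resolved. In ASC3-like cells the values were 75 and 81.2 CPM in RT, 247 and 122 CPM in COLD and 471 and 275 CPM in CL, and the cold difference was 1.24 ± 0.39 (edgeR adjusted p = 0.451).

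The difference between subtypes in the cold response was tested directly for Postn, with the library as a block. The response of ASC1-like cells exceeded that of ASC2-like cells by 6.09 ± 0.41 (log2, edgeR class by treatment term, adjusted p = 3.98e-07) and that of ASC3-like cells by 3.66 ± 0.35 (adjusted p = 3.14e-05). ASC2-like cells lay below ASC3-like cells by -2.41 ± 0.28 (adjusted p = 1.15e-04). Postn was the only member called in each of these 3 tests, in which 7.75%, 6.81% and 0.195% of all genes were called. For Tnc the ASC1-like response differed from that of ASC2-like cells by 1.89 ± 1.22 and from that of ASC3-like cells by 1.32 ± 2.30, and for Cthrc1 by 1.29 ± 0.61 and 0.44 ± 0.40, none of which passed. These standard errors leave room for a sizeable difference in either gene.

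Over all stromal cells Postn was at 107 and 233 CPM in RT and 642 and 639 CPM in COLD (2.09 ± 0.39, edgeR adjusted p = 0.0414). The call was lost when any of RT replicate 1, RT replicate 2, COLD replicate 1 or COLD replicate 2 was left out (differences of 1.89 to 2.35, adjusted p of 0.153 to 0.232 in the edgeR fits, each with 1 library in the reduced group). In the Adrb1 line the direction was opposite, with 2813 CPM at RT and 422 CPM in cold in WT and 527 and 402 CPM in KO, and a fit over both lines gave 0.39 (edgeR adjusted p = 0.737). Of all cell classes VSMC-like cells, which are vascular smooth muscle cells and pericytes, had the highest median, at 1159 to 3345 CPM over the 6 C57 libraries, followed by Schwann-like cells at 414 to 3546 CPM, and these ranges overlap. In Schwann-like cells Postn was at 1061 and 414 CPM in RT and at 3475 and 3546 CPM in COLD. The summed level of the VSMC markers in ASC1-like cells was 76.5 and 41.6 CPM in RT, 270 and 133 CPM in COLD and 187 and 90.2 CPM in CL, with none of the markers at 0 in RT or COLD, so it moved with Postn, Tnc and Cthrc1. Acta2 and Tagln, which are also on the fibroblast activation list given below, carried most of that rise in cold. Acta2 was at 9.34 and 0.306 CPM in RT and at 99.3 and 41.3 CPM in COLD. Tagln was at 7.83 and 0.395 CPM in RT and at 91.5 and 39 CPM in COLD. The part of the VSMC markers in these results was not tested.

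Nov levels differed more between subtypes than between treatments. In ASC2-like cells it was at 61.2 and 130 CPM in RT, 84 and 98.6 CPM in COLD, and 151 and 102 CPM in CL, while no ASC1-like sum of a C57 library reached 6 CPM. The ASC2-like groups overlapped, and the cold difference was 0.11 ± 0.23 (edgeR adjusted p = 0.923). In the member-high cluster Nov was at 17.8 and 42.8 CPM in RT, 45.6 and 117 CPM in COLD and 284 and 146 CPM in CL, so both COLD libraries too were above both RT libraries.

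Of the secreted and fibre proteins, Cthrc1 rose with cold in ASC1-like and ASC3-like cells. In ASC1-like cells it was at 15.6 and 45.4 CPM in RT, 208 and 200 CPM in COLD, and 119 and 70.3 CPM in CL (cold difference 3.06 ± 0.30, edgeR adjusted p = 8.96e-04). In ASC3-like cells it was at 9.08 and 11.9 CPM in RT, 63.9 and 68.1 CPM in COLD, and 336 and 127 CPM in CL (2.67 ± 0.44, edgeR adjusted p = 0.0497). The ASC3-like call was lost without any single one of RT replicate 1, RT replicate 2, COLD replicate 1 and COLD replicate 2 (differences of 2.58 to 2.83, adjusted p of 0.216 to 0.298 with edgeR, each with 1 library in the reduced group), and at leiden resolution 2 (0.0749) or with the member-high cells added to their nearest subtype (0.329). The summed VSMC marker level in ASC3-like cells was 50.1 and 30.8 CPM in RT, 141 and 71.7 CPM in COLD and 94.9 and 81.2 CPM in CL, with none of the markers at 0, and its part was not tested. In ASC2-like cells Cthrc1 was at 5.02 and 10.1 CPM in RT, 23.5 and 23.4 CPM in COLD, and 691 and 124 CPM in CL. Its cold difference there was 1.78 ± 0.71 (edgeR adjusted p = 0.436). Immune-like cells held Cthrc1 at 1.62 to 8.49 CPM in RT and at 28.2 to 32.8 CPM in COLD. The ASC2-like level in COLD is therefore not shown to be above background, and the part of background in the ASC3-like rise was not resolved.

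The order of COLD and CL levels of Cthrc1 depended on the subtype. Both COLD libraries were above both CL libraries in ASC1-like cells, and both CL libraries were above both COLD libraries in ASC2-like and ASC3-like cells. The latter held for 1 of 6 members in ASC1-like, 4 of 6 in ASC2-like and 5 of 6 in ASC3-like cells and for 5 of 8 over all stromal cells, where 14.9%, 6.92%, 6.86% and 10.9% of all genes did so. Since the genes were chosen as high under CL, nothing is read from these counts. In shares of cells, 15.4% and 14.6% of ASC1-like cells were positive in COLD and 6.92% and 5.06% in CL, whereas 1.97% and 1.59% of ASC2-like cells were positive in COLD and 23.2% and 5.88% in CL. Immune-like cells were positive in 2.41% and 0.723% in COLD, so the ASC2-like share of COLD replicate 1 is not above background. In CL they were positive in 4.57% (95% exact binomial interval 1.99% to 8.81%) and 3.31% (1.08% to 7.56%) and stood at 195 and 79.8 CPM, more than the ASC1-like sums of the same libraries, so the ASC1-like level and share in CL are not shown to be above background. Nor is the ASC2-like share of CL replicate 2, which lies inside that interval. CL replicate 1 had a lower median depth in these subtypes (1578 to 1888 UMIs) than CL replicate 2 (3178 to 4160 UMIs), and thinning brings both to the same 1000 UMIs. Cthrc1 was also high in proliferating stromal cells, at 184 and 238 CPM in COLD and 1519 and 341 CPM in CL, and RT held too few such cells for a value.

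Prg4 had cold differences of 2.18 to 3.96 in the 3 subtypes. In ASC2-like cells it was at 23.4 and 58.3 CPM in RT, 195 and 269 CPM in COLD, and 366 and 260 CPM in CL. Every COLD and CL library lay above both RT libraries, and the cold difference was 2.71 ± 0.33 (edgeR adjusted p = 0.00936). The call was lost without COLD replicate 2 (2.37, edgeR adjusted p = 0.112) and with member-high cells added to the nearest subtype (2.49, adjusted p = 0.0655). In ASC3-like cells it was at 21.7 and 81 CPM in RT, 166 and 227 CPM in COLD and 444 and 304 CPM in CL. There the cold difference was 2.18 ± 0.42 (edgeR adjusted p = 0.0898), and it passed with the replicate number as a block (adjusted p = 0.0291). In ASC1-like cells it rose from a low base, with 0.815 and 2.3 CPM in RT and 14.9 and 22.8 CPM in COLD (3.96 ± 0.63, edgeR adjusted p = 0.00556). That call did not hold without RT replicate 1 (3.43, edgeR adjusted p = 0.0854). Prg4 in immune-like cells was at 0 CPM in both RT libraries and at 10.3 and 8.97 CPM in COLD, and in VEC-like cells, which are vascular endothelial, at 4.84 and 18.2 CPM and at 42.4 and 17.4 CPM, so the ASC1-like level in COLD is not shown to be above background. The summed level of the 6 markers of differentiating adipocytes moved with Prg4, at 8.25 and 17.2 CPM in RT and 202 and 42.9 CPM in COLD in ASC2-like cells, and at 23.8 and 48.8 CPM in RT and 174 and 81 CPM in COLD in ASC3-like cells. At RT 3 of the 6 were at 0 in ASC2-like cells of replicate 1. Prg4 in the differentiating adipocytes of the COLD libraries was itself at 3.34 and 4 CPM, and the part of these markers in the result was not tested. The cold response of Prg4 in ASC1-like cells differed from that in ASC2-like cells by 1.11 ± 0.53 and from that in ASC3-like cells by 1.54 ± 0.53, which did not pass (edgeR adjusted p = 0.231 and 0.101).

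Shares of Prg4-positive cells did not overlap between the RT and COLD experiments of both lines. In ASC2-like cells it was 0.415% to 4.1% in the 4 RT experiments and 13.3% to 17.7% in the 4 COLD experiments, and in ASC3-like cells 2.02% to 5.99% and 9.91% to 17.8% (exact two-sided permutation p = 0.0286 in both, adjusted p = 0.061). Of the immune-like cells 0 were positive in each RT experiment, which allows a share of up to 1.27% to 3.3%, and 0.723% to 1.43% were in the COLD experiments. The CL shares were 26.7% and 18.2% in ASC2-like and 28.8% and 19.5% in ASC3-like cells.

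In the 3 subtypes of the C57 libraries Fbn2 was low outside CL replicate 1. In ASC1-like cells it was at 1.37 and 3.94 CPM in RT, 10.3 and 8.35 CPM in COLD, and 21.4 and 3.66 CPM in CL. Both COLD libraries were above both RT libraries, and the cold difference of 2.20 ± 0.69 did not pass (edgeR adjusted p = 0.073). It passed with the replicate number as a block (2.36, adjusted p = 0.0282) and with RT and COLD libraries alone (0.00557). In ASC2-like and ASC3-like cells the gene did not pass the filter on low counts. There CL replicate 1 was at 25.6 and 36.6 CPM, and no other C57 library reached 3 CPM.

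Of the membrane and cytoplasmic proteins, Lrrc15 was low in every C57 library but CL replicate 1. In all stromal cells it was at 0.558 and 0.596 CPM in RT, 0.373 and 0.985 CPM in COLD, and 105 and 3.9 CPM in CL. The RT sums held 8 and 3 UMIs and the COLD sums 6 and 21 UMIs, so the gene is counted among the 8 tested through its CL counts, and a cold difference was hardly detectable at this depth (0.30 ± 2.17, edgeR adjusted p = 0.95). The gene did not pass the filter in any subtype, where the highest sum of a C57 library was 12.6 CPM, in ASC2-like cells of CL replicate 1. Lrrc15 was present in 18% of the member-high cells of CL replicate 1 and in 1.71% of those of CL replicate 2.

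Gap43 had a lower value in cold than at RT in ASC2-like cells. There, in the subtype with its highest levels, it was at 31.5 and 126 CPM in RT, 10.8 and 20.7 CPM in COLD, and 62.8 and 31.9 CPM in CL. Both COLD libraries were below both RT libraries, and the difference of -1.98 ± 0.49 did not pass (edgeR adjusted p = 0.156). In all stromal cells it was -2.75 ± 0.71 (edgeR adjusted p = 0.0763), and this passed with RT and COLD libraries alone (-2.72, adjusted p = 0.0154). ASC2-like cells were a smaller share of the Lin- cells in COLD than in RT, and the part of this in the all-stromal difference was not tested. In Schwann-like cells Gap43 was at 34.9 and 85.4 CPM in RT and 139 and 99.7 CPM in COLD. The summed Schwann marker level in ASC2-like cells was 69.6 and 126 CPM in RT and 93.2 and 78.8 CPM in COLD, so that both it and Gap43 were highest in RT replicate 2. Its part in the result was not tested. The plot of cold differences collects these fits.

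**Figure D3:**
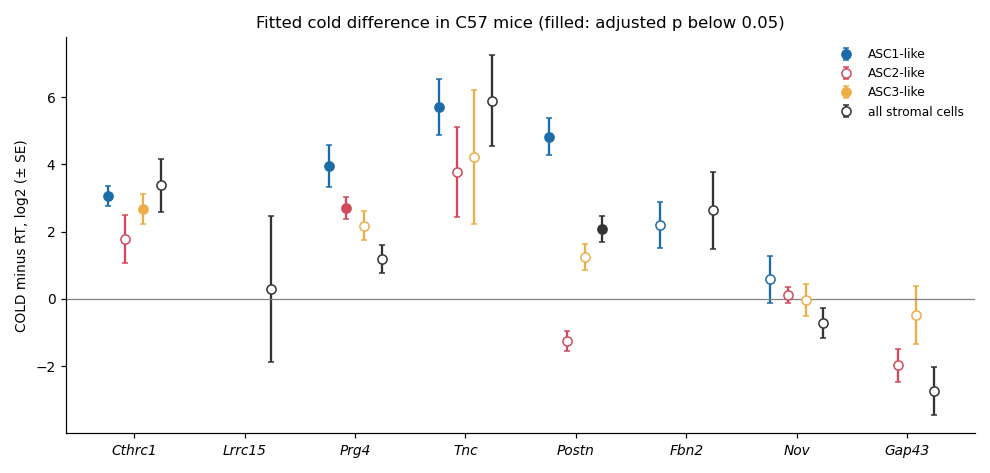
Points give the fitted COLD minus RT difference on the log2 scale (y axis) for each gene (x axis) in the subtypes and in all stromal cells of C57 mice, with bars of ± 1 SE from the edgeR fit, and filled points have an adjusted p below 0.05. Postn lies at 4.83 in ASC1-like and at -1.26 in ASC2-like cells, and genes that did not pass the filter have no point.

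Across cell classes the order of levels differed from gene to gene. Over the C57 libraries with at least 20 cells of a class, the medians of Cthrc1, Tnc and Fbn2 were highest in proliferating stromal cells (290, 203 and 14.6 CPM, from the 4 COLD and CL libraries, since RT held too few such cells), those of Lrrc15 and Prg4 in the member-high cluster (17.4 and 487 CPM), that of Postn in VSMC-like, that of Nov in ASC2-like (100 CPM) and that of Gap43 in Schwann-like cells (62.6 CPM). In every case the range over libraries overlapped that of the next class. For Cthrc1, Tnc and Fbn2 this order is not like for like, since the medians of the member-high cluster and the subtypes include the RT libraries. Without RT, member-high cells held Cthrc1 at 58 to 130 CPM in COLD and 706 to 2749 CPM in CL. Their Fbn2 was at 0 to 6.97 CPM in COLD and 23.8 to 138 CPM in CL. Within CL alone the highest median of Cthrc1 was in the member-high cluster (1727 CPM, against 930 CPM in proliferating cells), and for Tnc and Fbn2 too proliferating cells were not the highest class there. The heat map of levels by class shows how the classes with the highest levels changed with treatment.

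**Figure D4:**
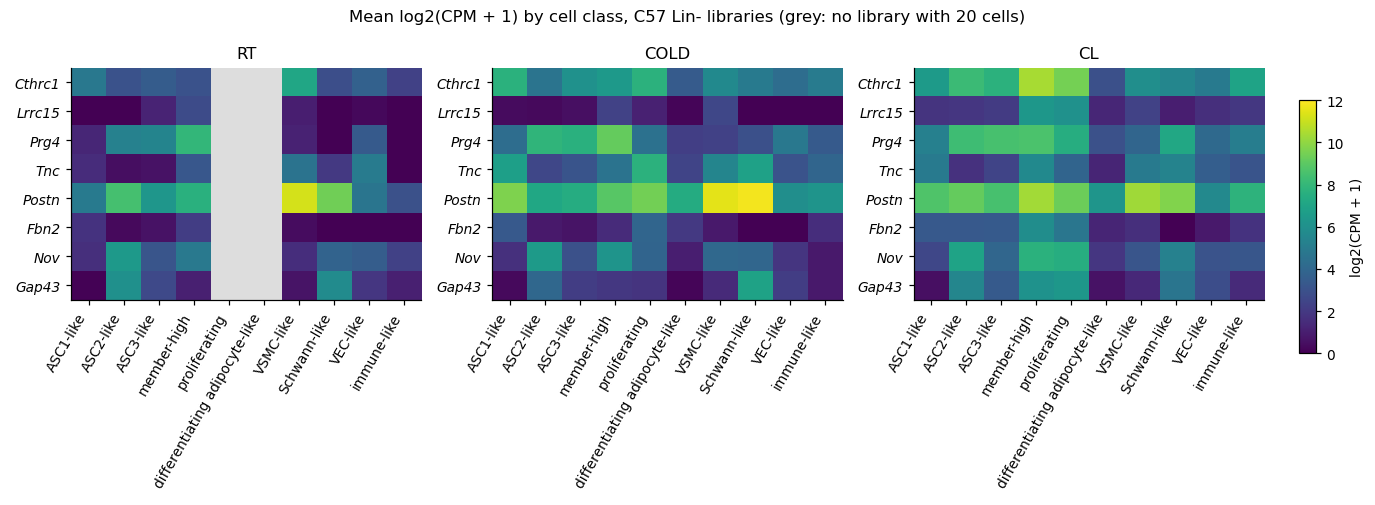
Colour gives the mean log2(CPM + 1) of each gene (rows) in each cell class (columns) over the C57 Lin- libraries with at least 20 cells of the class, in separate panels for RT, COLD and CL, and grey marks classes without such a library. Cthrc1 is brightest in VSMC-like cells in RT and in the member-high column in CL, and Postn is brightest in VSMC-like and Schwann-like cells in RT and COLD.

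Over the 18 sums of 3 subtypes by 6 C57 libraries, the levels of the genes did not follow a single pattern. The pair with the highest Pearson correlation of log2(CPM + 1) was Nov and Gap43 (r = 0.92), followed by Cthrc1 and Fbn2 (0.84) and Lrrc15 and Fbn2 (0.74). Tnc ran against Gap43 (-0.47) and Nov (-0.43). The 10 genes of most like pattern to the mean of the members were Efemp2 (r = 0.912), Slc27a3, Pck1, Hk2, Steap1, Wfdc21, Rsph1, Adig, Clstn3 and Mrpl54 (0.839). These are descriptions over sums that share libraries and hold the CL values the choice used.

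Of the 34 genes of a fibroblast activation list, 32 were tested in ASC1-like cells, 9 were higher and 1 was lower in cold (5.68% and 5.22% of all genes), and 22 did not pass, with a median cold difference of 0.98 (log2) where that of all tested genes was 0.01. The list was chosen with earlier results of these data known, so this is a description. Adam12, among the 9, is reported by the paper itself as raised by cold in ASC1. Spp1, a secreted phosphoprotein, rose the most (0.273 and 0.985 CPM in RT, 57.4 and 39 CPM in COLD, 6.72 ± 0.87, edgeR adjusted p = 0.00245). The paper lists Spp1 among the genes of a macrophage cluster that appeared in cold, and the part of such cells in this value was not tested. Thbs1, thrombospondin 1, rose the least (1.15 ± 0.21, adjusted p = 0.0107), and Itgbl1, an integrin-like secreted protein, fell by 2.70 ± 0.43 on the log2 scale (adjusted p = 0.00556). The summed level of the 6 immune markers in ASC1-like cells moved the same way, at 6.57 and 5.24 CPM in RT, with 3 of the 6 at 0 in replicate 2, and at 12 and 13.3 CPM in COLD, with none at 0, and its part was not tested. The list shares Acta2 and Tagln, both of which rose, with the VSMC markers. In ASC2-like and ASC3-like cells 0 of 29 and 0 of 31 listed genes passed, where 0.64% and 0.171% of all genes were called, with medians of 0.14 and 0.11. There 1105 and 739 of all genes had an unadjusted p under 0.05, and DESeq2 called 125 and 36 genes against 70 and 18 with edgeR.

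Of 11 genes listed as related to members by sequence or function, 9 were tested in ASC1-like cells. Wisp1 (2.94 ± 0.63) and Ctgf (2.76 ± 0.35), which belong to the CCN family like Nov, rose, and Tgfbi, related to Postn, fell by 1.24 ± 0.26 (edgeR adjusted p = 0.021, 0.00232 and 0.0181). Of 9 receptors tested for such proteins 1 of each direction passed, where 5.68% of all genes were called higher and 5.22% lower. Cd44, a hyaluronan receptor, rose (1.29 ± 0.19) and Itga8, an integrin subunit, fell by 1.52 ± 0.30 (edgeR adjusted p = 0.0044 and 0.0159). None of the 3 TGF-beta ligand genes passed in ASC1-like cells, and their median difference was -0.06.

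Stromal cells that remained in the Lin+ libraries gave a further look at the CL contrast, in libraries the choice did not use but from the same pools of mice. Those pools are the replicates of the fit, so its CL p-values are not independent of the choice and serve as a description. They were taken to be cells with at least 3 of 6 stromal markers and no Ptprc, the gene of the pan-leukocyte protein CD45. There were 31 and 35 such cells in RT, 26 and 25 in COLD, and 20 and 1047 in CL. The 6 immune markers still summed to 19 to 979 CPM in these cells, and to 3299 CPM in RT replicate 2. Cthrc1 was at 9.65 and 23.6 CPM in RT, 53.9 and 144 CPM in COLD, and 514 and 240 CPM in CL. Both CL libraries were above all others. The CL difference was 4.29 ± 0.75 (log2, edgeR adjusted p = 0.071 over 2936 genes), so it did not pass, nor did the cold difference of 2.37 ± 0.83 (adjusted p = 0.278). Without CL replicate 2, which holds most of these cells, the CL difference was 4.73, and without CL replicate 1 it was 3.81. DESeq2 gave 4.37 (Wald test, adjusted p = 0.00115), whereas with the replicate number as a block in edgeR the difference did not pass. The first 2 of these fits hold 1 CL library, whose spread was assumed to be that of the RT and COLD pairs. Of the other members only Tnc and Postn passed the filter, with CL differences of 0.27 ± 1.33 and 1.35 ± 0.44 and cold differences of 2.61 ± 1.08 and 1.54 ± 0.44. None of the 3 was called by edgeR, where 0.17% of genes were called higher and 0.272% lower in CL, and 0.0341% each way in cold. At an unadjusted p under 0.05 there were 410 and 390 genes, and DESeq2 called 37 and 43. Lrrc15 had 2 and 9 UMIs in CL (19.4 and 9.79 CPM), 0 and 1 UMI in RT (0 and 7.87 CPM) and 0 UMIs in both COLD libraries. The levels of CL replicate 2 and RT replicate 2 were thus close together, and all rest on few UMIs.

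In the Adrb1 line, with 1 library in each group, the values stand side by side without a test. Tnc in ASC1-like cells was at 16.2 CPM (WT) and 1.34 CPM (KO) at RT and at 352 and 285 CPM in cold. Cthrc1 went from 12.1 to 162 CPM in WT and from 5.36 to 144 CPM in KO, and Postn from 246 to 544 CPM and from 180 to 564 CPM. Each of these was higher in cold than at RT in both genotypes, as in C57 mice. In ASC2-like cells Prg4 went from 24.4 to 232 CPM in WT and from 12.1 to 212 CPM in KO, whereas Postn went from 2501 to 206 CPM and from 1091 to 119 CPM.

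The WT RT library of this line held a further group of cells with high levels. A cluster of 579 stromal cells, 84.5% of them from that library, had Postn at 8633 CPM, Nov at 461 CPM, Fbn2 at 278 CPM, Gap43 at 223 CPM, Cthrc1 at 110 CPM and Lrrc15 at 58 CPM, with Prg4 at 3.31 CPM and Tnc at 0.336 CPM. Its leading genes were Col6a5, Smpd3 and Mrgprg. It was kept out of the subtypes, but it adds to the sums over all stromal cells, in which Postn was at 2813 CPM in WT RT and at 422 CPM in WT COLD.

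**Figure D5:**
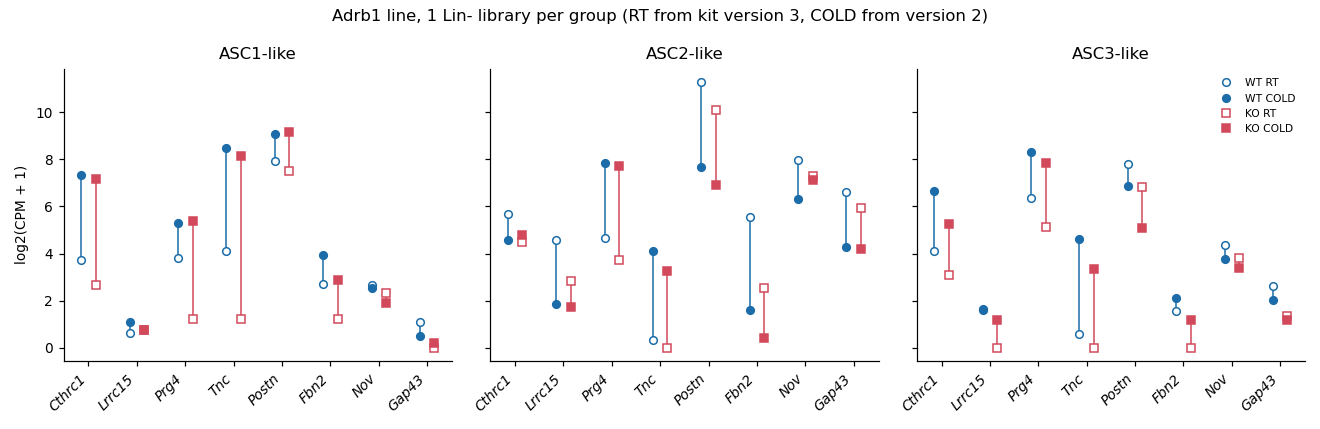
Points give log2(CPM + 1) (y axis) of each gene (x axis) in the ASC1-like, ASC2-like and ASC3-like cells of the Adrb1 line, WT and KO in different colours and symbols, open at RT and filled in cold, with a line joining the 2 libraries of a genotype. Tnc is higher in cold in every panel and Postn is lower in cold in the ASC2-like panel, in both genotypes.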

How the data were processed

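Per the labels and the study's methods, stromal vascular cells of iBAT were sequenced as 20 Chromium libraries, a Lin+ and a Lin- library for each of 10 experiments. The deposited matrices hold expected counts per gene and cell: the authors made UMI counts with Cell Ranger 3.0.1 on mm10 and subtracted cell-free RNA with SoupX, so 97.2% to 99.6% of non-zero entries are not whole. Cells with under 10% mitochondrial UMIs, under 15000 UMIs, over 100 genes (Lin-) and under 4000 genes (Lin+) were kept, which left 66339 of 89637 Lin- and 59935 of 67122 Lin+ barcodes. Total UMIs were 7857161 to 41979839 per library, which sets the counting error of every value but not the spread between pools. Doublets were kept in the main values.

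Lin- cells were clustered with scanpy 1.11.5 and leidenalg 0.10.2 (2000 variable genes without the 8 members and the marker genes, 30 components, 6 aligned cohorts, 30 neighbours, resolution 1, seed 1). A class needed 3 raised markers. Mixed clusters, a cluster led by muscle stem cell genes and those with over 80% of cells from 1 library stayed unnamed. Proliferating and unnamed stromal clusters counted among all stromal cells. Corrected counts were summed per library and class, rounded, and fitted with edgeR 4.0.16 (R 4.3.3, TMM, filterByExpr, quasi-likelihood F test, two-sided, Benjamini-Hochberg over all genes tested, threshold 0.05). SE is the log2 difference over the square root of F. CPM is the share of the summed counts, with no further scaling. Fits treated pools as independent. Same-numbered C57 libraries come from the same replicate experiment per the study's methods, and differences between replicates 1 and 2 correlated over genes between groups (r = 0.29, 0.10 and 0.42). Replicates were separate libraries (chi-square per degree of freedom 37.8 to 95). DESeq2 1.42.0 served as an alternative.

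On counts simulated from the ASC1-like sums (12439 genes, 5 simulations), 86.1% of 4-fold and 33% of 2-fold changes were recovered, and 9.12% of calls were false. Positive cells had a corrected count of at least 0.5, or 1 UMI after thinning to 1000. In each library 42 to 647 stromal cells were too shallow to thin. Intervals cover counting error only. The members, lists and tests were chosen with earlier results of these data known. The text names all members, the largest and smallest cold change of each list among genes past the threshold, and the 10 genes of like pattern. Differences under CL in the Lin- libraries and in the member-high cluster were not tested.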

Additional observations from a re-analysis of the deposited data

Results flagged for a closer look

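Within the 4 RT experiments, the Adrb1 WT RT library was far from the others over all stromal cells for 2 genes: Postn, at 2813 CPM (gap to the next library 0.845 of the range), and Fbn2, at 72.7 CPM (0.971 of the range). About 1 in 20 groups is picked out by chance. Postn also moved in opposite directions in the mouse lines, which was not tested. Over all stromal cells it went from 107 to 642 CPM in C57 replicate 1 and from 2813 to 422 CPM in WT, and in ASC3-like cells from 75 to 247 CPM and from 223 to 114 CPM, with the same signs in C57 replicate 2 and in KO. Fbn2 in ASC2-like cells went from 0 to 0.935 CPM in C57 replicate 1 and from 45.9 to 2 CPM in WT. In C57 replicate 2 it went from 0.54 to 0.567 CPM and in KO from 4.87 to 0.329 CPM, and the C57 values are too low to show a change. Kit version, collection day and temperature cannot be told apart in the values of the Adrb1 line. The cold response of Postn differed between subtypes by a test of the difference itself: ASC1-like minus ASC2-like 6.09, ASC1-like minus ASC3-like 3.66 and ASC2-like minus ASC3-like -2.41 on the log2 scale.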

How the results depend on the processing

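Depth and 2 pools per group limit every comparison, and adjusted p-values near 0.05 moved across the threshold easily. In ASC1-like cells, where 1355 genes were called, no filter on low counts gave 2415, the replicate block 2105 and both lines together (4 against 4, with line as a term) 3078. In ASC2-like cells (70 called) DESeq2 gave 125, no filter 467, the block 181, RT and COLD libraries alone 114, both lines 520, both lines without the Adrb1 WT RT library (an alternative chosen after seeing the data) 147, and adding member-high cells to the nearest subtype 31. In ASC3-like cells (18 called) the same settings but the last gave 36, 236, 72, 44, 504 and 80, and leiden resolution 2 gave 8. Over all stromal cells (505 called) they gave 1267, 2345, 1602, 2178, 4253 and 2163. Leaving out 1 library gave 448 to 728 calls in ASC1-like, 5 to 55 in ASC2-like and 1 to 3 in ASC3-like cells and 0 to 43 over all stromal cells. The differences between subtypes had 451 to 623 (ASC1-like minus ASC2-like, 950 called), 258 to 519 (ASC1-like minus ASC3-like, 778) and 8 to 22 calls (ASC2-like minus ASC3-like, 22, or 113 with no filter). In Lin+ stromal cells 13 genes were called under CL (DESeq2 37, block 24, leaving out 1 library 5 to 69) and 2 in cold (43, 18 and 2 to 12). The replicate block brought 5 member results of cold against RT past the threshold, all given beside the results, and changed no other call of a member. Over both lines, Postn in all stromal cells lost its call (0.39, adjusted p = 0.737, and 1.31, 0.114, without the Adrb1 WT RT library, by edgeR).

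Reversals touched members that had not passed. For cold against RT, leaving out 1 library gave -0.80 to 1.24 for Nov in ASC1-like, -0.10 to 0.35 in ASC2-like and -0.67 to 0.37 in ASC3-like cells, -1.44 to 1.19 for Gap43 in ASC3-like cells and -0.66 to 0.82 for Lrrc15 in all stromal cells. It gave -0.75 to 0.90 (Nov, ASC1-like minus ASC2-like), -0.20 to 0.93 (Cthrc1), -2.93 to 3.63 (Tnc) and -0.16 to 0.86 (Nov, all ASC1-like minus ASC3-like), -3.54 to 0.41 (Tnc) and -0.02 to 0.61 (Nov, both ASC2-like minus ASC3-like), and -0.92 to 1.92 for Tnc under CL in Lin+ stromal cells. Both lines together turned Nov in ASC2-like (-0.39), Postn in ASC3-like (-0.11) and Lrrc15 in all stromal cells (-1.26, or -0.34 without the Adrb1 WT RT library). With no filter Nov in ASC3-like cells was at 0.00. Without thinning, and equally with any corrected count above 0, the COLD minus RT share in ASC1-like cells turned to 0.826 percentage points for Nov and 0.0331 for Gap43. The cause of these changes was not tested.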
